A study of Mus musculus with 2 samples.

Results

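Apoe and Scarb1 are 2 of the 24346 gene symbols measured in splenic CD4+ T cells, and they are described here as genes of a mouse disease model. The column headers of the deposited values carry the word HypoE. The rule takes both by symbol and uses no measured value, though it was written with earlier results of these data known. The cells were sorted from spleen at day 14 from animals labelled HFD-MI, which the labels do not spell out. One library came from animals treated with probucol and 1 from untreated animals, so both groups share the HFD-MI condition and the HypoE header. The labels give no genotype, strain, age, sex or dose, and no number of animals per library. No library of another genotype or without the HFD-MI condition was analysed here.

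Apoe encodes apolipoprotein E, a secreted lipid carrier made mainly by hepatocytes and macrophages. It binds lipoprotein receptors and heparan sulfate proteoglycans, through which lipoprotein remnants are cleared. Scarb1 encodes SR-BI, a cell surface receptor of the CD36 family that takes up cholesteryl esters from high-density lipoprotein (HDL), chiefly in liver and steroid-producing tissue, and that is also made by macrophages and endothelium. Macrophages load cellular cholesterol onto apolipoproteins and HDL through the transporters ABCA1 and ABCG1, and the oxysterol-sensing LXR nuclear receptors induce these genes together with Apoe. In the literature, HypoE stands for a hypomorphic Apoe allele, one with lowered expression. Mice that carry such an allele and also lack SR-BI develop coronary disease and myocardial infarction on an atherogenic diet. The word HypoE does not by itself state a loss of SR-BI. The labels give neither genotype, so both are given as background only. Probucol is a cholesterol-lowering drug with antioxidant activity that also lowers HDL cholesterol.

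Each value is an FPKM, fragments scaled to transcript length and to the mapped fragments of the library, with 1 value per gene and library. Low FPKM values fell on steps, from which a depth of 9.66e+06 fragments was estimated for the probucol library and 9.62e+06 for the untreated one. Of 24346 symbols, 14289 were above 0 with probucol and 16876 untreated, so values of 0 were more common in the probucol library as a whole. As each group is 1 library, replicates could not be compared and no test was made. All intervals given are 95% intervals of counting error alone, and PCR copies are counted in. All 12 T cell markers were above 0 in both libraries, among them Cd4 at 334 FPKM with probucol and 284 FPKM untreated. All 8 compared B cell markers were higher with probucol (summed 323 and 203 FPKM over 12 listed genes, with 1 gene, Pax5, at 0 in both). All 10 compared erythroid markers were lower (summed 368 and 1206 FPKM over 11 genes).

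Apoe transcripts were present in both libraries at nearly equal levels. The gene lies on chromosome 7, 19696109 to 19699188, minus strand (mm10, GENCODE release M21), and its longest transcript of 1408 bp has 4 exons. Apoe stood at 12.9 FPKM with probucol (10.6 to 15.4) and at 11.9 FPKM untreated (9.73 to 14.4). The intervals of both libraries overlap over most of their length. These levels rest on about 116 and 107 fragments, and a count of 3 fragments would correspond to 0.333 FPKM. Of all symbols, 23.5% had a higher FPKM than Apoe with probucol and 24.0% untreated. Per length, Apoe stood at 3.87% of the Cd4 level with probucol and 4.18% untreated. The ratio of probucol over untreated was 1.09 (0.826 to 1.42), an interval that holds equality and leaves out a 2-fold difference in either direction.

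Scarb1 was the lower of the pair. It lies on chromosome 5, 125277087 to 125341094, minus strand, and the principal transcript of 2521 bp has 13 exons. Scarb1 stood at 2.58 FPKM with probucol (1.98 to 3.36) and at 3.57 FPKM untreated (2.85 to 4.47). The untreated library was the higher one, and the 2 intervals overlap in part. About 58 and 80 fragments lie behind these levels, with 3 fragments corresponding to 0.135 FPKM. The ratio was 0.722 (0.508 to 1.03), so that a difference of Scarb1 between the libraries was not detectable at this depth. How many fragments Scarb1 holds depends on the transcript models: with the median length of the full annotation, which includes short partial transcripts, the estimates were lower and the interval widened to 0.357 to 1.45. Of all symbols, 38.0% had a higher FPKM than Scarb1 with probucol and 35.3% untreated.

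**Figure D1:**
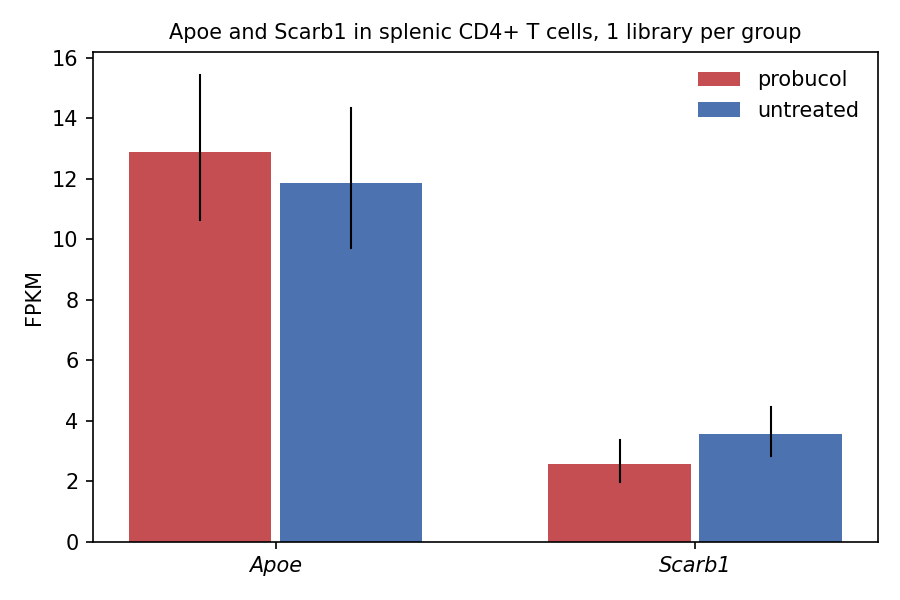
Level of Apoe and Scarb1 in FPKM (vertical axis, from 0) in the probucol and the untreated library, with 1 library per bar. Black lines are 95% intervals of counting error only. Apoe stands at 12.9 and 11.9 FPKM and Scarb1 at 2.58 and 3.57 FPKM, with overlapping intervals for each gene.

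Apoe was the more abundant transcript per length in both libraries, by 5.0-fold with probucol and 3.32-fold untreated. The change of this quotient between the libraries was 1.50 (0.953 to 2.35), so that a difference between the ratios of the 2 genes was not detectable at this depth.

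Both genes therefore had transcripts well above the level of 3 fragments in libraries headed HypoE, with and without the drug. A gene-level FPKM sums fragments over all exons and does not show which exons they came from, nor whether a transcript encodes a working protein. It is thus no check of a deleted exon of Scarb1 or of an altered Apoe allele. Whether either level differs from that of wild-type cells cannot be read from libraries that share one header. In the annotation no gene overlaps Apoe, and the single gene overlapping Scarb1, Gm42633, is on the same strand and was not analysed here.

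Set against all genes, neither gene stood out in the probucol comparison. Of 10663 genes with a mean FPKM of 1 or more, 1.62% were at least 2-fold higher with probucol and 1.98% at least 2-fold lower on the log2(FPKM + 1) scale, 3.6% in all. By any amount, 5617 of these genes were higher and 5046 lower, the background for the counts given below for each list. Of Apoe and Scarb1, 0 of 2 were past 2-fold. On that scale, which understates changes of low genes, the log2 ratio was 0.11 for Apoe and -0.35 for Scarb1, beside a median of 0.02 over all genes compared and quartiles of -0.18 and 0.23. Of the genes compared, 28.5% had a smaller absolute log2 ratio than Apoe and 71.9% a smaller one than Scarb1. Among genes within 2-fold of the mean level of Scarb1, 2499 in number, 55.6% had a smaller absolute log2 ratio, and among the 3559 near Apoe 27.1% did. The counting interval of the ratio held equality for both genes, as it did for 48.1% of 10269 genes with a length. It lay above equality for 28.4% and below it for 23.5%.

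**Figure D2:**
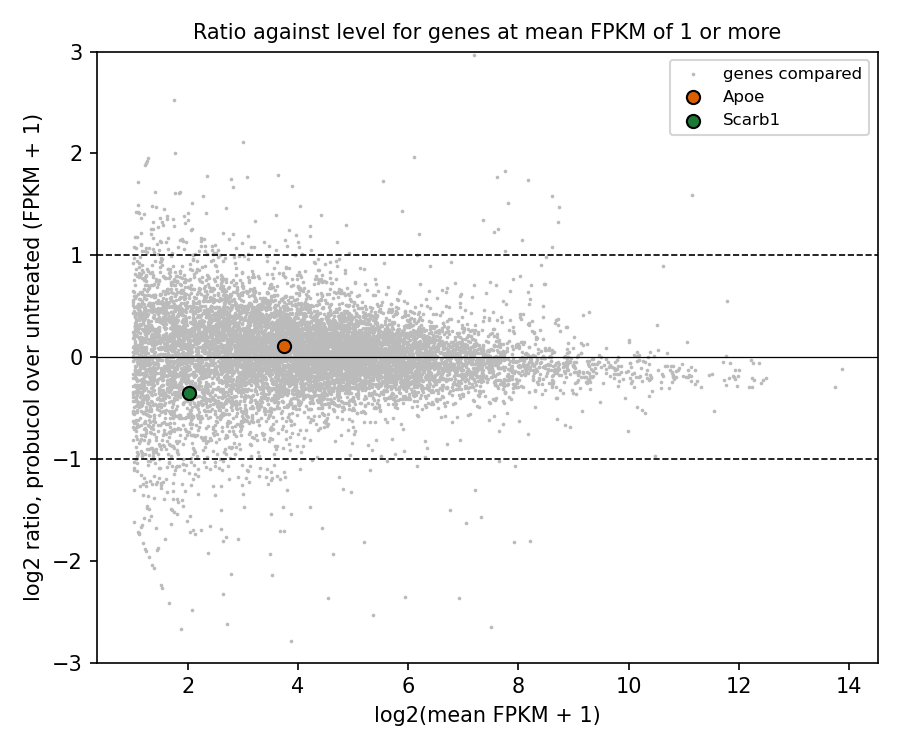
Log2 ratio of probucol over untreated on FPKM + 1 (vertical axis) against log2 of the mean FPKM + 1 (horizontal axis), 1 grey point per gene at a mean FPKM of 1 or more. Dashed lines mark 2-fold, and 52 genes beyond 3 in either direction are not drawn. Apoe (0.11) and Scarb1 (-0.35) lie between the dashed lines.

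Apoe made up most of the apolipoprotein signal. Of 19 apolipoprotein and related genes, it ranked 1 in both libraries and held 80.8% of their summed FPKM with probucol and 65.1% untreated. The sums were 16.0 and 18.2 FPKM and Apoe itself was at 12.9 and 11.9 FPKM. The shares thus differ mainly through the other genes of the list. In both libraries 10 of the genes were listed at 0. The closest relatives by position, Apoc1, Apoc2 and Apoc4, lie beside Apoe in one cluster. Apoc1, a small exchangeable apolipoprotein and like Apoe an LXR target of macrophages, was listed at 0 with probucol and at 3.12 FPKM untreated. That value rests on about 7 fragments of a short transcript. Apoc2, the activator of lipoprotein lipase, and Apoc4 were listed at 0 in both. Clu, the extracellular chaperone clusterin, was at 1.75 and 0.998 FPKM, for a ratio of 1.76 (0.915 to 3.46). Apobr, a receptor for apolipoprotein B, was at 0.325 FPKM under probucol against 1.65 FPKM, for a ratio of 0.197 (0.0660 to 0.471), on about 6 and 31 fragments. The hepatocyte genes Apoa1 and Apob were close to 0, at 0.257 and 0.256 FPKM and at 0 and 0.0364 FPKM, and the hepatocyte marker Alb was at 0.0546 and 0.109 FPKM. Of the 8 hepatocyte markers, 4 were listed at 0 with probucol and 2 untreated. Fewer of all symbols were above 0 with probucol too, 14289 against 16876 untreated. The summed levels of the 8 markers were 10.1 and 11.2 FPKM. Nearly all of that was Trf, the gene of the iron carrier transferrin, at 9.49 and 10.1 FPKM, while Serpina1a was at 0.265 and 0.659 FPKM.

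Receptors and partners of apolipoprotein E spanned a wide range of levels. Of 23 receptor and partner genes, 12 passed the level of 1 FPKM, with 5 higher, 7 lower and 0 past 2-fold. Their median log2 ratio was -0.08, beside 0.02 over all genes. Lrp1, the large remnant receptor of liver and macrophages, was at 0.123 and 0.306 FPKM, on about 3 and 8 fragments. Lrp8, an apolipoprotein E receptor best known from the brain, was at 2.29 and 1.38 FPKM, 1.66-fold higher with probucol (1.11 to 2.59). Lrp12 was at 1.30 and 1.89 FPKM, for a ratio of 0.688 (0.467 to 0.983). The most abundant was Lrp10, at 150 and 163 FPKM. Mylip, an LXR-induced ubiquitin ligase that limits lipoprotein uptake, was 1.27-fold lower (1.12 to 1.44), at 18.8 and 23.9 FPKM. Lrpap1, the chaperone of these receptors, was at 34.4 and 35.4 FPKM.

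Scarb1 stood between the other members of the CD36 family in level. Scarb2, which encodes the lysosomal membrane protein LIMP-2, was at 30.7 and 27.9 FPKM, for a ratio of 1.10 (1.02 to 1.19). Scarb1 thus stood at 8.40% of the Scarb2 level with probucol and 12.8% untreated. Cd36, the fatty acid and oxidised lipoprotein receptor, was below Scarb1, at 0.126 and 0.719 FPKM on about 3 and 18 fragments. Among 19 scavenger receptors Scarb1 ranked 6 in both libraries, and 6 genes were compared, with 2 higher, 4 lower, 0 past 2-fold and a median of -0.11. The highest members, Cd6 at 305 and 352 FPKM and Cd5 at 257 and 260 FPKM, are T cell surface proteins of the scavenger receptor fold. Cd5l, secreted by macrophages, was at 5.48 and 8.46 FPKM, 1.54-fold lower (1.19 to 2.0).

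Adaptors of SR-BI and genes of intracellular cholesterol transport were mostly more abundant than Scarb1. Of 20 adaptor and transport genes, 16 were compared, with 7 higher, 9 lower, 0 past 2-fold and a median of -0.05. Gramd1a, one of the Aster proteins that carry cholesterol from the plasma membrane to the endoplasmic reticulum, was at 408 and 288 FPKM, 1.41-fold higher with probucol (1.37 to 1.46). Its relative Gramd1b, best known from steroid-producing tissue, was at 11.9 and 10.3 FPKM. Pdzk1, the adaptor that stabilises SR-BI in liver, was at 1.11 and 0.646 FPKM, for a ratio of 1.72 (0.852 to 3.58). Slc9a3r1, a related adaptor of wider expression, was at 220 and 241 FPKM. Soat1, which esterifies cholesterol for storage, was 1.63-fold higher (1.40 to 1.91), and the sterol carrier gene Osbpl2 was 1.36-fold lower (1.21 to 1.52). Tspo, a cholesterol-binding protein of the outer mitochondrial membrane, was at 506 and 523 FPKM and Npc2, which moves cholesterol out of lysosomes, at 140 and 144 FPKM.

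In the efflux and HDL list, which holds both genes, 9 of 16 were compared, with 5 higher, 4 lower and 0 past 2-fold, and the median was 0.03. On the log2(FPKM + 1) scale Scarb1 had the largest absolute log2 ratio of the 9, at -0.35, closely followed by Abca7 at 0.34 and Abcg1 at -0.33. Abca7, a relative of Abca1, was at 17.3 and 13.5 FPKM, 1.29-fold higher (1.18 to 1.41). Abcg1 was at 54.4 and 68.7 FPKM and Abca1 at 5.50 and 5.39 FPKM. Their ratios were 0.792 (0.745 to 0.843) and 1.02 (0.905 to 1.15). S1pr1, the receptor for the sphingosine phosphate carried on HDL and for T cell exit from lymphoid tissue, was the highest of the list at 243 and 270 FPKM. The interval held equality for 6 of the 9 genes.

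**Figure D3:**
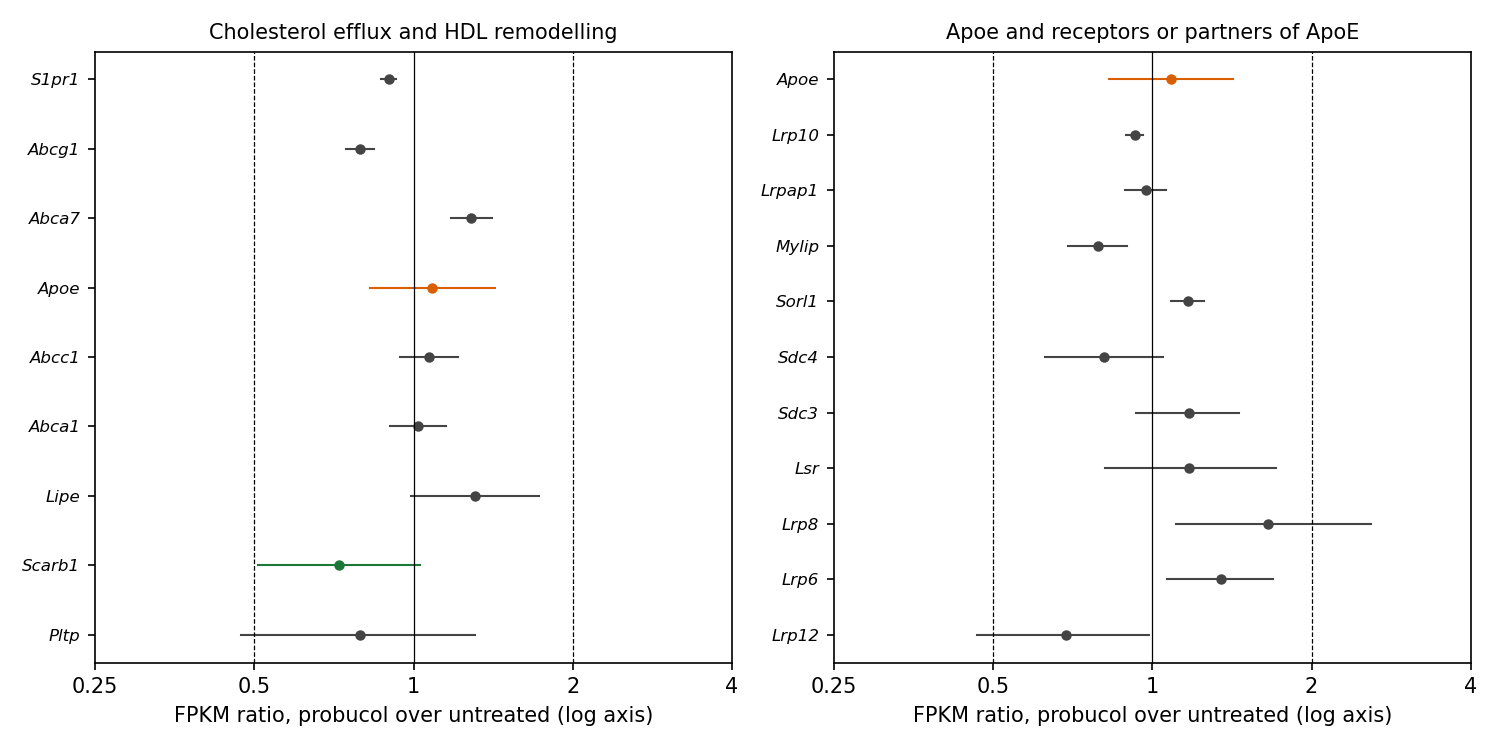
FPKM ratio of probucol over untreated (horizontal log axis) for genes at a mean FPKM of 1 or more in the efflux and HDL list (left) and for Apoe beside 10 receptors and partners of apolipoprotein E (right), each in order of level. Points are ratios of 1 library each, lines are 95% intervals of counting error, and dashed lines mark 2-fold. Apoe (1.09) and Scarb1 (0.722) have wide lines that cross equality.

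The LXR list, to which Apoe belongs, had 17 of 20 genes compared, with 8 higher, 9 lower and a median of -0.06. On the log2(FPKM + 1) scale, Apoc1, listed at 0 with probucol, was the 1 gene counted as at least 2-fold lower, and 0 were higher by that much. Apoc1 passed the mean level of 1 FPKM through the untreated library alone, so the filter fixed its count as lower. The counting interval lay above equality for 3 of the 17 genes and below it for 5. Nr1h2, which encodes LXR beta, was at 56.8 and 53.4 FPKM, for a ratio of 1.06 (0.971 to 1.16). Nr1h3, which encodes LXR alpha, was at 1.70 and 0.376 FPKM, on about 26 and 6 fragments, 4.52-fold higher with probucol by the FPKM themselves (1.74 to 12.9) and 0.97 on the log2(FPKM + 1) scale. The corepressor gene Ncor1 was 1.41-fold higher (1.34 to 1.49). Smpdl3a, a phosphodiesterase induced by LXR, was at 141 and 161 FPKM and Rxrb, a partner of LXR in binding DNA, at 37.7 and 43.0 FPKM. Among the LXR targets, Apoe, Abca1 and Srebf1 had ratios of 1.09, 1.02 and 0.960 (0.881 to 1.05), and Abcg1, Mylip and Smpdl3a had 0.792, 0.788 and 0.878 (0.832 to 0.927). Arl4c was higher, at 1.24 (1.13 to 1.36). In the sterol-regulated list, 19 of 20 genes were compared, with 8 higher, 11 lower, 2 of the latter past 2-fold, and a median of -0.08. Those 2 were the mevalonate pathway kinases Mvk, at 2.56 and 7.58 FPKM, and Pmvk, at 9.47 and 21.4 FPKM. Sqle, which makes squalene epoxide, had the next largest ratio, at 4.58 and 2.59 FPKM. The most abundant of the list were Fdps, at 34.4 and 46.3 FPKM, and the sterol-sensing transcription factor gene Srebf2, at 36.7 and 42.5 FPKM.

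Macrophages are a known source of both transcripts, and their marker genes were present in these sorted cells. Of 20 macrophage markers, 13 were compared, with 8 higher with probucol, 5 lower and 0 past 2-fold on the log2(FPKM + 1) scale. The summed level was 212 FPKM with probucol and 208 FPKM untreated, and the median log2 ratio was 0.28. Most of both sums was Lyz2, lysozyme of macrophages and neutrophils, at 125 and 132 FPKM. The summed level is therefore not particular to macrophages. Apoe stood at 10.3% and 9.01% of the Lyz2 level. Neutrophil markers were present too: all 10 were compared, 9 higher with probucol and 2 of these past 2-fold, with summed levels of 1090 and 971 FPKM, a median log2 ratio of 0.21 and S100a8, a calcium-binding protein of neutrophils, at 591 and 536 FPKM. Of 9 natural killer cell markers, 6 were compared, 2 higher and 4 lower, 2 of the latter past 2-fold, with a median log2 ratio of -0.73. The summed levels were 58.6 and 55.0 FPKM, most of it Prf1, which was higher with probucol at 49.9 and 36.3 FPKM. The 2 past 2-fold were Gzma, at 0.150 and 3.28 FPKM, and Klrd1, at 1.22 and 6.22 FPKM. Gzma was compared only through its untreated level, which fixed its direction. Ncr1 and Klre1, under a mean of 1 FPKM and so not compared, were higher with probucol. Ncr1 was at 1.04 and 0.0795 FPKM, on about 13 and 1 fragments, and Klre1 at 0.996 and 0.708 FPKM. The complement genes C1qa, C1qb and C1qc were at 5.39, 20.2 and 10.1 FPKM in the probucol library. Untreated, they were at 5.48, 13.9 and 8.02 FPKM, a range that holds the level of Apoe. Csf1r, the growth factor receptor of macrophages, was at 3.75 and 1.85 FPKM, for a ratio of 2.02 (1.53 to 2.71).

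The markers did not move one way. Vcam1, Slc40a1 and Adgre1 had ratios of 1.72 (1.38 to 2.14), 1.48 (1.20 to 1.81) and 1.47 (0.867 to 2.56). Cd68 and Cd14 were at 1.26 (0.961 to 1.65) and 1.21 (0.706 to 2.23). Axl, an apoptotic cell receptor, was lower at 0.567 (0.472 to 0.679), as was Cd5l, while Spic, the transcription factor of red pulp macrophages, was at 0.875 (0.566 to 1.39). Marco and Siglec1, which mark different macrophages at the marginal zone of the spleen, were listed at 0 with probucol and at 0.562 and 0.0323 FPKM untreated. Others were under 1 FPKM in both libraries: Mertk at 0.270 and 0.477, Cd163 at 0.310 and 0.285, Timd4 at 0.204 and 0.812 and Fcgr1 at 0.0842 and 0.210 FPKM. The part of macrophage RNA in the Apoe and Scarb1 levels was not tested, and in bulk RNA fewer cells of a type and less RNA per cell cannot be told apart. Of 12 endothelial or stromal markers, 8 were listed at 0 with probucol and 2 untreated. Over all 24346 symbols, 14289 were above 0 with probucol and 16876 untreated. Pecam1, which T cells also express, was the only one of these markers compared, at 47.6 and 43.5 FPKM. The endothelial gene Cdh5 was at 0 and 0.0528 FPKM.

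Genes next to Apoe and Scarb1 on their chromosomes were read out as well, since an engineered allele is carried in a stretch of linked DNA. Both libraries share the HypoE header, so ratios of probucol over untreated cannot show an effect of such DNA. The neighbours are given as a description of each region only. Of the 10 protein-coding neighbours of Apoe, 9 were matched and 4 compared. All 4 were lower with probucol, as were 5046 of all 10663 genes compared. Past 2-fold was 1 of them, the Apoc1 listed at 0, on about 7 fragments untreated. As Apoc1 passed the filter through the untreated library alone, it could only count as lower. The median log2 ratio was -0.15. Tomm40, the channel subunit of the protein translocase in the outer mitochondrial membrane, 2124 bp from Apoe, was at 42.0 and 44.2 FPKM, for a ratio of 0.951 (0.848 to 1.07). Clptm1 and Bcl3 had ratios of 0.889 (0.827 to 0.956) and 0.906 (0.845 to 0.972). Bcam was at 0 and 0.182 FPKM, and Apoc2, Apoc4, the read-through Apoc4-apoc2 and Cblc were listed at 0 in both libraries.

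The neighbours of Scarb1 fell on either side of equality. Of 10 neighbours, 7 were compared, with 4 higher, 3 lower, 0 past 2-fold and a median log2 ratio of 0.18. On the side of lower coordinates, Zfp664 and Ccdc92 had ratios of 1.15 (1.01 to 1.30) and 1.18 (1.03 to 1.34). On the other side, Dhx37, 72763 bp from Scarb1, was at 6.53 and 9.14 FPKM, for a ratio of 0.714 (0.615 to 0.833). Bri3bp was at 0.620 (0.521 to 0.734), while Aacs, the gene after it, was at 1.18 (1.06 to 1.31). The Scarb1 ratio of 0.722 was close to that of Dhx37. Dnah10 and Fam101a were at or below 0.0695 FPKM in both libraries.

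**Figure D4:**
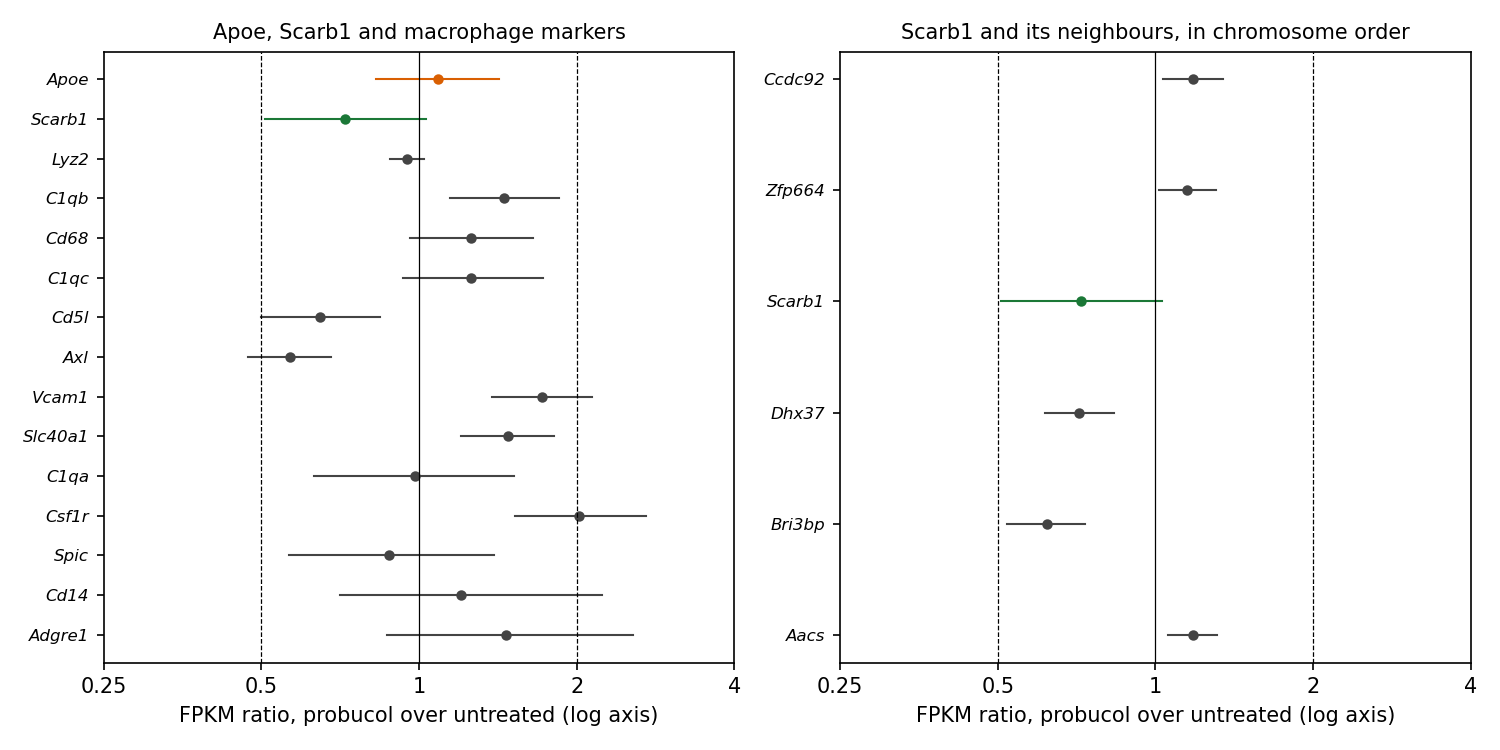
FPKM ratio of probucol over untreated (horizontal log axis) for Apoe, Scarb1 and compared macrophage markers in order of level (left) and for Scarb1 among 5 of its compared neighbours in chromosome order (right). Points are ratios of 1 library each, lines are 95% intervals of counting error, and dashed lines mark 2-fold. Macrophage markers spread from Axl at 0.567 to Csf1r at 2.02, and Dhx37 and Bri3bp lie below equality with Scarb1.

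Many genes shared the values of Apoe and Scarb1 over these 2 libraries. By distance on log2(FPKM + 1), the nearest to Apoe were Pxn, at 12.9 and 11.8 FPKM, Btbd10, at 13.0 and 12.0 FPKM, and Eme2, at 13.0 and 11.7 FPKM. The nearest to Scarb1 were Ndrg1, at 2.54 and 3.57 FPKM, Grasp, at 2.61 and 3.43 FPKM, and Extl2, at 2.58 and 3.39 FPKM. Within a distance of 0.1 lay 74 genes for Apoe and 22 for Scarb1, of 18488 named symbols, so likeness over 2 libraries singles out no gene.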

How the data were processed

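Values are FPKM as the authors deposited them, 1 for each gene symbol, per the file headers. The submitters' processing notes list TopHat2 2.1.1, Bowtie2, Cuffdiff 2.2.1 and the build mm10 with no roles. SMART-Seq HT cDNA was made into Nextera libraries, per the labels' protocols, which name neither molecular identifiers nor strand. The sources used here give neither the annotation nor the scaling between libraries. The worth of 1 fragment and a length subtracted were fitted to low FPKM values of genes with 1 transcript of 800 to 10000 bp in the basic set of GENCODE release M21. The step was 0.100 FPKM at 1 kb in both libraries. Of low values, 72.7% with probucol and 73.7% untreated lay within 0.1 of a whole number, where 20% would by chance. On whole fragments simulated for 8868 genes from the untreated levels, with no other noise, the fit returned the step and length in 2 of 2 settings. Fragments per gene used the median transcript length, and for genes with several transcripts they are approximate. Intervals are exact (Clopper-Pearson for ratios, Poisson for levels), cover counting error only, and came from scipy 1.17.1. Log2 ratios used a pseudocount of 1 at a mean FPKM of 1 or more. A gene under 1 FPKM in 1 library passed this filter only through the other, which fixed the direction of its ratio. Both genes and all gene lists were chosen with earlier results of these data known. In each of the 7 gene lists, text was given to the most abundant genes and those of largest ratio, with fixed family members and neighbours. Nectin2 and Gm10382, 2 neighbours, found no unique match by symbol or synonym and were not analysed here. The erythroid genes Hbb-bt and Ahsp were absent under those symbols, were not sought under others and were not analysed here. Some genes of the lists count in the totals but are not reported here by name.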

Additional observations from a re-analysis of the deposited data

How the results depend on the processing

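The Apoe ratio ranged from 1.06 to 1.10 and the Scarb1 ratio from 0.708 to 0.734 over 3 other scalings of the libraries, all within the counting interval of the reported value. Other transcript lengths left the ratios as they were and moved only their intervals, for Apoe to 0.632 to 1.80 with the shortest coding transcript. The median over the full annotation was added after the data were seen. With pseudocounts 0.1 and 5 the log2 ratio was 0.12 and 0.08 for Apoe and -0.46 and -0.18 for Scarb1. Genes at least 2-fold higher numbered 313 (pseudocount 0.1), 55 (pseudocount 5) and 83 (mean FPKM of 5 or more), against 173 as reported. Genes at least 2-fold lower numbered 357, 64 and 96 under the same settings, against 211. Of 64 recomputed list medians, 63 stayed within 1 SD of the reported one. The B cell median moved from 1.21 to 0.71 with pseudocount 5. With no filter on low values, 4 medians no longer had their sign: those of apolipoproteins, scavenger receptors and natural killer cells were 0 and that of dendritic cells was 0.08. No paired analysis was possible because each group has 1 library. The number of fragments limits the Scarb1 ratio, variation between animals was not measured, and leaving out a library was not possible.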
